A study of Mus musculus with 12 samples.

Results

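Axon guidance and ephrin genes were examined in the RNA-seq of C2C12 cells, a line of mouse myoblasts that divide in growth medium (GM) and fuse into myotubes once serum is withdrawn. They were taken by name: a protein-coding gene counted as a member when a deposited table listed it and its symbol was that of a semaphorin (Sema), plexin (Plxn), neuropilin (Nrp), Eph receptor (Eph), ephrin (Efn), slit (Slit), robo (Robo), netrin (Ntn) or Unc5 gene. The rule found 43 of the 9266 protein-coding genes with a row in at least 1 of the 3 deposited tables, which together listed 10289 genes of any type. No row of another gene type matched the names.

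The RNA-seq had 8 libraries in 4 groups of 2, and every group carried a lentiviral construct selected with puromycin. GFP-overexpressing cells, the negative control, were sequenced in GM (day 0) and after 4 days in differentiation medium (D4). Cells that overexpressed mouse METTL3 or METTL14 from the CMV vector pKD were sequenced in GM. Both are core members of the complex that writes N6-methyladenosine (m6A) on mRNA, and per the paper only METTL3 is catalytically active. The METTL14 libraries have day 0 in their titles and day 4 in their time point field, and they were taken as GM libraries, as their titles have it. Each overexpression was a stable line, and nothing in the labels says whether the 2 libraries of a group came from separate cultures.

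The D4 table compared D4 with GM in GFP cells, and the METTL3 and METTL14 tables compared each line with GFP cells in GM. All 3 comparisons used the GFP libraries in GM. Each table holds the genes that passed the authors' limit on the false discovery rate (FDR), 0.05. Beside each gene stand the authors' mean normalized count, a mean over libraries after division by size factors, and columns of the authors' own comparison. The comparison columns were not used, so no direction, fold change or p-value is given here. The value given for each gene is that mean, without a spread, because the tables hold no value per library, and the depth of the libraries is unknown from them. For a gene in several tables the mean was identical (largest relative difference 4.77e-10 over 1746 genes), so it is an average over a common set of libraries in which GM and D4 cannot be separated. A gene without a row has no value at all, so its level is unknown here, and absence does not show that it was low.

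These gene families steer growing axons in the nervous system, and muscle cells use several of them too. Semaphorins act through plexins, to which the secreted class 3 members are held by neuropilins. Ephrins sit on the surface of a neighbouring cell and bind Eph receptor tyrosine kinases, slits bind robo receptors, and netrins bind DCC and the Unc5 receptors. In muscle, class 3 semaphorins and ephrins are known for their part in innervation and in the movement of muscle precursors.

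Markers of the labelled cell type and of other types were looked up. A row shows only that a gene passed the FDR limit in a comparison. Having or lacking a row therefore does not show whether a cell type was present. Of all 21951 annotated protein-coding genes 42.2% had a row. All 7 myoblast markers had a row, among them Des with a mean normalized count of 24157, Cdh15 with 5221 and Myod1 with 1845. Pax7 stood at 21.7 and Msc at 9.13. All 5 myotube markers had a row too, with Myh3 at 40372, as a mean that includes the D4 libraries can give. Of the endothelial markers Pecam1, Cdh5 and Kdr had no row, and Tek was at 56.7. Of the neuronal markers Rbfox3, Snap25 and Syt1 had no row, while Stmn2 (811), Tubb3 (466) and Map2 (78.6) did. Fibroblast markers were listed for 3 of 4 genes, Col1a1 at 34402, Dcn at 2776 and Pdgfra at 525. In these bulk libraries fewer cells of a type and less RNA per cell cannot be told apart.

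The annotation (GENCODE M21 on GRCm38) holds 69 protein-coding genes with such names, of which the 43 listed are 62.3%. Over all 21951 annotated protein-coding genes 9254 were listed (42.2%). Plexins were listed for 8 of 9 genes and semaphorins for 17 of 20. Netrins were listed for 3 of 4 genes, slits for 2 of 3, robo receptors for 2 of 4 and neuropilins for 1 of 2. Eph receptors were listed for 6 of 14 genes, ephrins for 3 of 8 and Unc5 genes for 1 of 5, where the annotated 5 include Unc5cl, a gene whose name the rule also takes. The 26 genes without a row include Nrp1, the other neuropilin gene, Plxnc1, the plexin that binds semaphorin 7A, and Slit3. Of the 9 EphA genes 2 had a row, Epha2 and Epha4, and of the 5 EphB genes 4 had a row.

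To read the counts by table, the share of all 9266 listed protein-coding genes with a row in each table serves as the background: 95.2% for the D4 table, 18.5% for the METTL3 table and 11.6% for the METTL14 table. A D4 row is thus the rule for any listed gene, and no count of a family was tested against these shares.

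**Figure D1:**
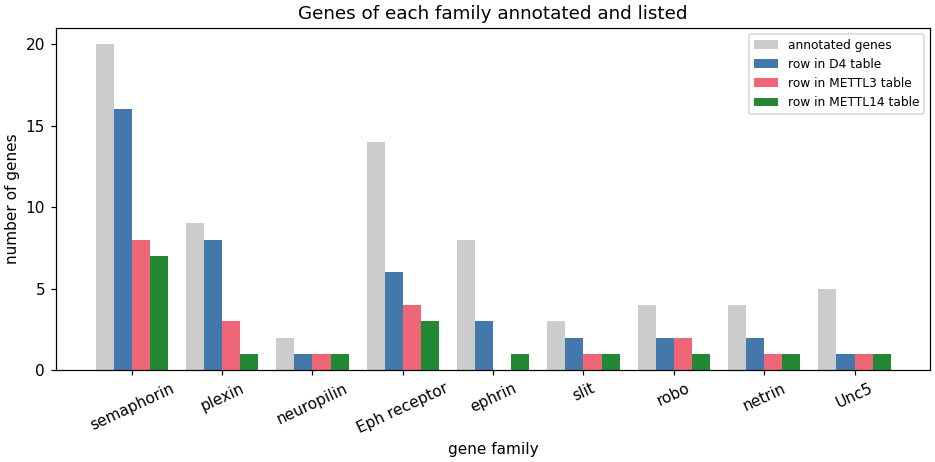
Number of genes (vertical axis) in each of the 9 families, as annotated in GENCODE M21 and as listed in the D4, METTL3 and METTL14 tables. Semaphorins and plexins have a D4 row for 16 of 20 and 8 of 9 annotated genes, and Eph receptors for 6 of 14. Of the listed genes of these families 16 of 17, 8 of 8 and 6 of 6 have a D4 row (background 95.2%). Over all annotated protein-coding genes 42.2% have a row in any table.

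Levels of different genes were compared per kilobase (kb) of exon, since a long transcript gives more reads. Over the 43 genes the mean normalized count per kb of exons had a median of 92.4 and ran from 0.884 to 990, against a median of 115 for the 9260 listed protein-coding genes with an exon length. Before division by length the members had a median of 601 and all listed protein-coding genes a median of 545. The members were longer, with a median exon length of 7301 bases against 4538, and the order of the medians turned between these scales. The mean reached 100 for 34 of the 43 genes (79.1%) and for 82.1% of all listed protein-coding genes.

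**Figure D2:**
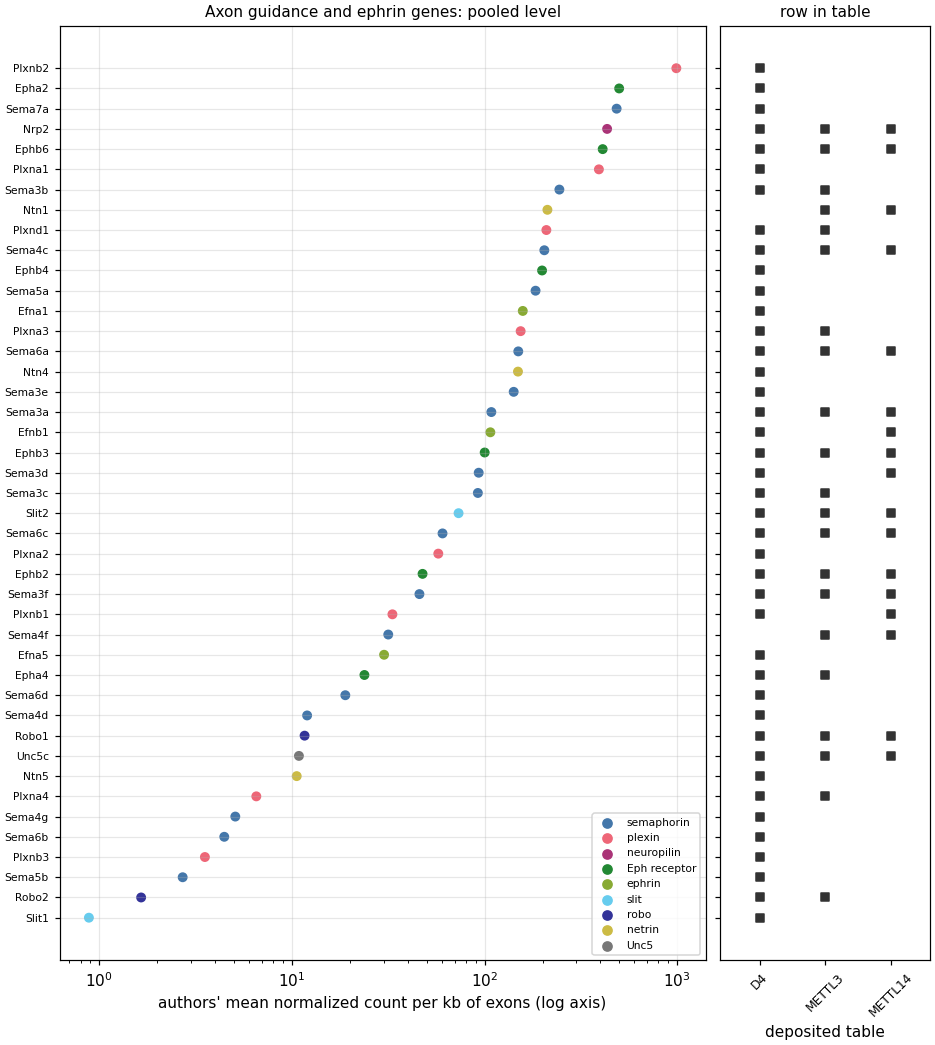
Authors' mean normalized count per kb of exons (horizontal, log axis) for the 43 genes, ordered by it and coloured by family, with squares at the right for each table that has a row for the gene. Plxnb2 is at the top with 990 and Slit1 at the bottom with 0.884.

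Plexins are the transmembrane receptors of semaphorins. Plxnb2, a receptor for class 4 semaphorins, had the highest level of all members, with a mean normalized count of 7645, or 990 per kb of exons. The gene (ENSMUSG00000036606) lies on chromosome 15 of GRCm38, from 89155549 to 89180788 on the minus strand, and was listed in the D4 table alone. Plxna1, which forms receptors with neuropilins, was at 3553 (392 per kb of exons) and was also listed in the D4 table alone. Plxnd1, which can bind semaphorin 3E without a neuropilin, was at 1529 (209 per kb), and Plxna3 was at 1214 (154 per kb), each with a row in the D4 and METTL3 tables. Plxna2 was at 989 (57.6 per kb) in the D4 table, and Plxnb1, the receptor of semaphorin 4D, was at 319 (33.3 per kb) in the D4 and METTL14 tables. The low members of the family were Plxna4, at 92.2 (6.54 per kb) in the D4 and METTL3 tables, and Plxnb3, at 23.0 (3.54 per kb) in the D4 table. The level per kb thus ran from 3.54 to 990 within the plexins, and all 8 listed plexins had a D4 row, 3 a METTL3 row and 1 a METTL14 row (backgrounds 95.2%, 18.5% and 11.6%).

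Nrp2 (ENSMUSG00000025969, chromosome 1, 62703285 to 62818695), a receptor subunit for class 3 semaphorins such as semaphorin 3F, had a mean normalized count of 5127, the next after Plxnb2 before division by length. With 433 per kb of exons it stood at place 4. It had a row in the D4, the METTL3 and the METTL14 table.

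Class 3 semaphorins are secreted and mostly repel growth cones. Sema3a, the founding repellent of the class, was at 1505 (109 per kb of exons) and was listed in all 3 tables. Sema3e was at 1316 (142 per kb) in the D4 table, and Sema3b at 1169 (245 per kb) in the D4 and METTL3 tables. Sema3d was at 802 (93.3 per kb) in the D4 and METTL14 tables, and Sema3c at 660 (92.4 per kb) in the D4 and METTL3 tables. Sema3f was lowest of the class with 239 (45.9 per kb), and had a row in each of the 3 tables. All 6 listed class 3 genes had a D4 row, 4 a METTL3 row and 3 a METTL14 row (backgrounds 95.2%, 18.5% and 11.6%), and Sema3g had none. Several of these genes lie near each other. Sema3a and Sema3e lie 423 kb apart on chromosome 5 with 1 coding gene between them. Sema3a and Sema3d lie 536 kb apart with 0 between them. On chromosome 9 Sema3b and Sema3f lie 72.3 kb apart with 3 coding genes between them.

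The other semaphorins are anchored in the membrane. Sema7a, which is held by a lipid anchor, was the highest of them per kb, at 1600 (485 per kb of exons), and Sema5a, which carries thrombospondin repeats, was at 3439 (184 per kb). Both were listed in the D4 table alone, as was Sema5b at 19.2 (2.71 per kb). Sema4c, a ligand of plexin B2, was at 939 (204 per kb) and had a row in all 3 tables. Sema4f was at 167 (31.6 per kb) and was listed in the METTL3 and METTL14 tables and not in the D4 table. Sema4d was at 92.2 (12.0 per kb) and Sema4g at 44.1 (5.09 per kb), each with a D4 row. Among the class 6 genes, which signal through plexin A receptors, Sema6a was at 1314 (150 per kb) and Sema6c at 359 (60.5 per kb), both in all 3 tables. Sema6d, at 200.0 (18.9 per kb), and Sema6b, at 17.7 (4.46 per kb), had a D4 row only.

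Eph receptors are the largest family of receptor tyrosine kinases. Epha2, a receptor of ephrin A1, was the member with the next highest level per kb after Plxnb2, at 2337 (500 per kb of exons), and was listed in the D4 table alone. Ephb6, which lacks kinase activity, was at 1549 (411 per kb) and was listed in all 3 tables. Ephb3, at 665 (100.2 per kb), and Ephb2, at 601 (47.7 per kb), were listed in all 3 tables as well. Ephb4, the receptor of ephrin B2, was at 923 (199 per kb) in the D4 table. Epha4, which binds ephrins of both classes, was lowest of the family with 192 (23.8 per kb), in the D4 and METTL3 tables. Of the 6 listed Eph receptors 4 had a METTL3 row and 3 a METTL14 row (backgrounds 18.5% and 11.6%). For the 4 EphB genes these counts were 3 and 3, and for the 2 EphA genes 1 and 0.

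Of the 3 listed ephrins none reached a mean normalized count of 1000. Efnb1, a transmembrane ligand of EphB receptors, was at 370 (107 per kb of exons) in the D4 and METTL14 tables. Efna1, a lipid-anchored ligand, was at 289 before division by length and at 158 per kb, the highest of the 3 on that scale, since its exons cover only 1830 bases. Efna5, also lipid-anchored, was at 121 (30.1 per kb). Efna1 and Efna5 had a D4 row only. Of the 3 listed ephrins 0 had a METTL3 row and 1 a METTL14 row (backgrounds 18.5% and 11.6%).

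Slit2, the secreted ligand of robo receptors, was at 1865 before division by length. Its exons cover 25433 bases, more than those of any other member, and per kb it was at 73.3. Its receptor gene Robo1 was at 192 (11.6 per kb), and both were listed in all 3 tables. Robo2, in the D4 and METTL3 tables, was at 28.0 (1.65 per kb), and lies 846 kb from Robo1 on chromosome 16 with 0 coding genes between them. Slit1 had the lowest value of all members, 5.23 (0.884 per kb), and a D4 row only.

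Among netrins and their receptors, Ntn1, the founding netrin, was at 1331 (212 per kb of exons), and like Sema4f it was listed in the METTL3 and METTL14 tables and not in the D4 table. Ntn4, a netrin that binds laminin, was at 558 (149 per kb) and Ntn5 at 23.5 (10.6 per kb), both in the D4 table. Unc5c, a netrin receptor that mediates repulsion, was at 208 (10.9 per kb) and was listed in all 3 tables. Dcc, Neo1 and the other Unc5 genes had no row, and Dscam, whose product also binds netrin, was at 5.17 in the METTL14 table.

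**Figure D3:**
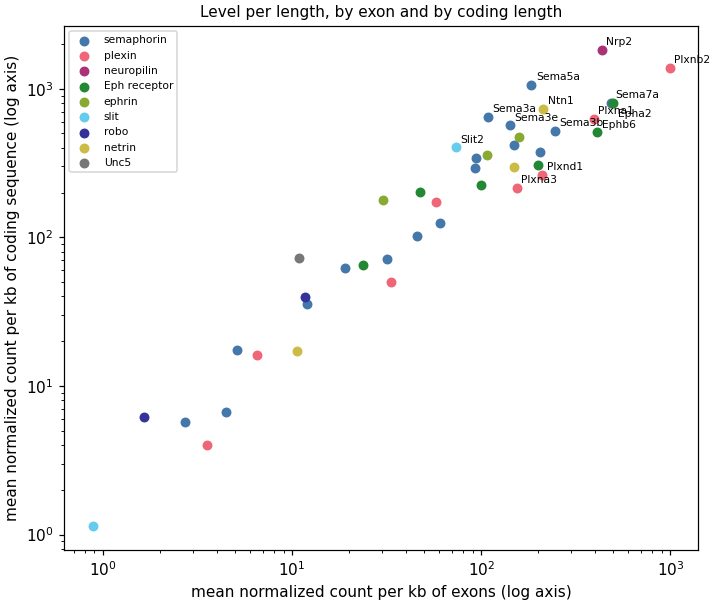
Mean normalized count of the 43 genes per kb of exons (horizontal) and per kb of the longest coding sequence (vertical), both on log axes, coloured by family. Plxnb2 and Nrp2 are at the upper right with 1383 and 1836 per kb of coding sequence, and Sema3a and Slit2 lie above most genes of like level per kb of exons.

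The order per length depends on the length that is used. Per kb of coding sequence Nrp2 was first with 1836 and Plxnb2 next with 1383, followed by Sema5a with 1067. The members' place by level moved for 37 of the 43 genes, most for Plxnd1, which fell 12 places, and Sema3a, which rose 11 places. Of the 10 genes with the highest level per kb of exons 7 were also among the 10 highest per kb of coding sequence. Neither length is that of the transcript expressed in these cells, which the tables do not give.

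The number of members listed was then read against the share of all listed protein-coding genes. The D4 table listed 41 of the 43 members (95.3%), near the 95.2% of the 9266 protein-coding genes. The METTL3 table listed 21 members (48.8%), where 18.5% of the protein-coding genes were listed. The METTL14 table listed 17 members (39.5%), where 11.6% of the protein-coding genes were listed. The base of these shares is genes with a row in any table, most of which enter through the D4 table, and no test was made of them. The members were chosen with earlier results of these data known, so the shares are not an independent result about these families. The METTL3 and METTL14 comparisons share the GFP libraries, so their shares are not independent of each other.

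**Figure D4:**
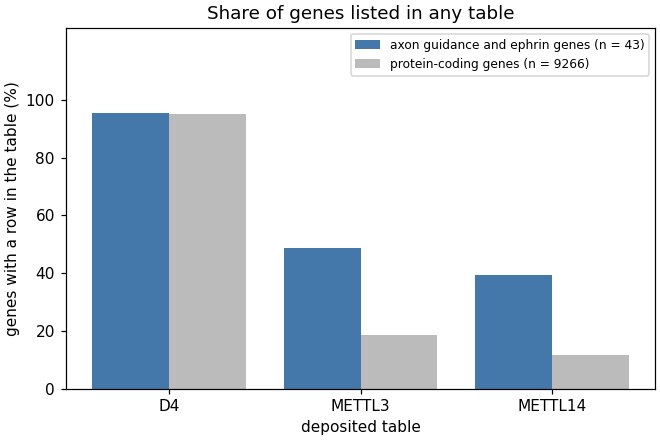
Percentage of genes with a row in each table (vertical axis, from 0), for the 43 axon guidance and ephrin genes and for all 9266 protein-coding genes listed in any table. The members stand at 95.3%, 48.8% and 39.5%, and the protein-coding genes at 95.2%, 18.5% and 11.6%.

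By role, 11 of the 18 receptors had a METTL3 row (61.1%) and 7 a METTL14 row (38.9%). Of the 11 secreted ligands (class 3 semaphorins, slits and netrins) 6 had a METTL3 row (54.5%) and 5 a METTL14 row (45.5%). Of the 14 membrane-bound ligands 4 had a METTL3 row (28.6%) and 5 a METTL14 row (35.7%). The backgrounds are 18.5% and 11.6%, and differences between the roles were not tested. Among genes whose mean reached 100 the METTL3 table listed 19 of 34 members (55.9%) and 19.5% of 7605 protein-coding genes, and the METTL14 table listed 17 of 34 members (50%) and 12.1% of these genes. Of the 9 members below 100, all had a D4 row, 2 had a METTL3 row (Plxna4 and Robo2) and 0 had a METTL14 row, where 92.1%, 14% and 9.51% of the 1661 protein-coding genes below 100 did. The median mean normalized count was 665 over the members in the METTL3 table and 665 over those in the METTL14 table, against 635 and 576 for all protein-coding genes there.

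The components that act with these ligands and receptors were described from a list of 60 genes, chosen with earlier results of these data known. Of the 60 genes 48 had a row, where 42.2% of all annotated protein-coding genes had one. The D4 table listed 43 of the 48 (89.6%), 13 (27.1%) had a METTL3 row, and 11 (22.9%) had a METTL14 row. The shares of all listed protein-coding genes are 95.2%, 18.5% and 11.6%, so the D4 share of the list lies below its background and the other two above theirs, with no test made. In all 3 tables stood the chemokine gene Cxcl12 (mean normalized count 1923), the kinase gene Fyn (1918), which acts below plexins and Eph receptors, and Limk1 (570), whose product phosphorylates cofilin. The actin regulators Ablim1 (2569) and Enah (1809), Mical1 (917), whose product oxidizes actin below plexins, and the adhesion gene L1cam (322) stood in all 3 as well. Cfl1, which encodes cofilin, had the highest mean of the list, 13831, and was in the D4 and METTL3 tables. The GTPase genes Rac1 (3511) and Cdc42 (5258) were in the D4 table, and Rhoa (2821) was in the D4 and METTL14 tables. Of the collapsin response mediator genes, which act below semaphorin 3A, Dpysl3 (3864) and Dpysl2 (360) had a D4 row, and Dpysl4 and Dpysl5 had none.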

How the data were processed

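RNA-seq of 8 C2C12 libraries was used through 3 deposited tables, and the 4 MeRIP-seq libraries were not analysed here. Per the paper's methods, the authors mapped reads with hisat2 (GRCm38), made gene counts by featureCounts from Ensembl version 102 gene models, compared groups with DESeq2 and kept genes with FDR ≤ 0.05. Tool versions are not given in the sources used here. The mean normalized count is a signal deposited by the authors, averaged over libraries after division by size factors. The tables also hold the authors' log2 fold change, its standard error, Wald statistic, p-value and adjusted p-value, none of which was used.

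From the tables, genes were selected by symbol and gene type, tables listing each gene were counted, and the mean was divided by the union of exons or the longest coding length in GENCODE M21, where all 43 members were found. This is the same build but another annotation release than the authors' one. No test was run. The members and lists were chosen with earlier results of these data known. Every member is named, and 1 marker list is not reported here. Selection by symbol and the counting of tables were tested on simulated data, and the union of exon intervals on a made-up example. The gene type filter, the coding length and the division by length were not tested in this way. Python 3.11.15, pandas 2.3.3, NumPy 2.4.6, SciPy 1.17.1 and matplotlib 3.10.9 were used.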

Additional observations from a re-analysis of the deposited data

How the results depend on the processing

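With genes of any type, or only genes whose mean reached 100, the number of axon guidance and ephrin genes was 43 and 34. Their median mean normalized count moved from 601 to 630 when a mean of at least 10 was required. It moved to 487 when Dcc, Neo1, Rgma, Rgmb, Dscam, Draxin and the Ntng genes were added to the names. Of these added names only Rgma, Rgmb, Dscam and Ntng2 had a row, which gave 47 genes. With a mean of at least 100 the shares listed in the D4, METTL3 and METTL14 tables were 94.1%, 55.9% and 50%. Of the 7605 protein-coding genes at that level 95.8%, 19.5% and 12.1% were listed. With the added names the shares were 93.6%, 44.7% and 38.3%, where the backgrounds without a limit on the mean are 95.2%, 18.5% and 11.6%. Division by coding length in place of exon length changed the place of 37 of 43 genes. Leaving out a library was not run, because the tables hold no value per library. No paired analysis was possible because the tables hold no column per replicate. The means carry no spread and the depth behind them is unknown from the tables, so no difference between genes could be set against replicate error.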
